A study of Mus musculus with 6 samples.

Results

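The genes described here encode 9 RNA-binding proteins of the germ line, *Nanos1*, *Nanos2*, *Nanos3*, *Lin28a*, *Lin28b*, *Dazl*, *Dnd1*, *Pum2* and *Elavl2*. They were taken by gene symbol from the count tables of all 6 samples, and all 9 were found among the 53657 gene names of those tables. RNA was sequenced from sorted undifferentiated spermatogonia (Aundiff), the testis cells that include the spermatogonial stem cells, of 3 WT and 3 MUT adult mice, each mouse giving 1 sample. MUT animals carried 1 *Hras* allele that Cre recombinase converts to the G12V form, an activated RAS protein, and WT animals were littermates without that allele. Mice of both groups carried *Gfra1-creERT2*, which drives a tamoxifen-dependent Cre from the *Gfra1* promoter, and a tdTomato reporter that marks recombined cells. All received 2 courses of tamoxifen and were of mixed genetic background. Cells positive for tdTomato and bright for the surface protein MCAM were collected 3 months later. The sort selected for the reporter and not for the *Hras* allele itself. From the RNA reads over the mutated base, the authors proposed that most of the sorted MUT cells carried G12V. The comparison of MUT with WT asked whether activated HRAS changes the transcriptome of these cells.

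The proteins encoded by the 9 genes act after transcription, by binding mRNA or microRNA precursors and changing their translation, decay or processing. NANOS proteins join the CCR4-NOT deadenylase complex to target mRNAs and work with partners such as the Pumilio protein PUM2 and DND1. LIN28A and LIN28B bind the precursors of the let-7 microRNAs and block their maturation, while let-7 in turn represses *Lin28* mRNAs. DAZL binds the 3′ untranslated regions (3′ UTRs) of germ cell mRNAs and promotes their translation, and ELAVL2 belongs to the Hu family, which binds AU-rich stretches of 3′ UTRs.

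The pairing of let-7 with the *Lin28* mRNAs can be read from the sequences themselves. According to RefSeq (GRCm38.p6), 9 mature mouse microRNAs of the let-7 family shared 1 seed, bases 2 to 8, which is in capitals in the 3 examples shown here. For each example a single RefSeq locus is given, and any other locus of the same mature microRNA was left out. The loci given lie on chromosome 13 (mmu-let-7a-5p, chr13:48538239-48538260, minus strand), chromosome 9 (mmu-let-7g-5p, chr9:106178846-106178867, plus strand) and chromosome X (mmu-miR-98-5p, chrX:151913229-151913250, plus strand).
mmu-let-7a-5p: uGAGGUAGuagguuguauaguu
mmu-let-7g-5p: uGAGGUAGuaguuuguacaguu
mmu-miR-98-5p: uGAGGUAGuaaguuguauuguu
The complement of that seed, CTACCTC, was searched on the sense strand of the 3′ UTR of each gene (GENCODE vM21, GRCm38, in the transcript with the longest coding sequence). It was found in 7.98% of the 21010 3′ UTRs of the annotation. Among the 9 genes it was found in *Lin28a*, at 2 sites, and in *Lin28b*, at 4 sites. In 3′ UTRs within 20% of the same length, 2 or more sites were present in 2.0% for the length of *Lin28a*, and 4 or more in 0.2% for the length of *Lin28b*. All 6 sites are printed in DNA letters in the direction of the mRNA, with the seed match in capitals. Those of *Lin28a* lie at chr4:134005181-134005205 and chr4:134004543-134004567, and those of *Lin28b* at chr10:45381014-45381038, chr10:45378640-45378664, chr10:45378468-45378492 and chr10:45377052-45377076, all on the minus strand.
Lin28a site 1: cctgttgaaCTACCTCatttttgcc
Lin28a site 2: gccacaaacCTACCTCactgtgttg
Lin28b site 1: gcgggaagtCTACCTCatgcaagca
Lin28b site 2: tgttagtaaCTACCTCtgagtttga
Lin28b site 3: agcacatggCTACCTCccagctacc
Lin28b site 4: tggcaccgaCTACCTCttcaatcac
Outside the seed match the flanking bases differed from site to site. A match describes the letters in the 3′ UTR and was not tested as a binding site.

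The Pumilio element TGTANATA, the motif that PUM proteins recognise, was present in 21.6% of the 3′ UTRs. It was found at 3 sites in *Elavl2*, at 2 sites each in *Pum2* and *Lin28b*, and at 1 site each in *Lin28a* and *Nanos1*. In 3′ UTRs within 20% of the length of that of *Elavl2*, 3.4% held 3 or more of these elements. For the lengths of *Pum2* and *Lin28b*, 14.3% and 24.0% held 2 or more. For those of *Lin28a* and *Nanos1*, 42.2% and 43.1% held at least 1. The *Elavl2* sites lie on the minus strand at chr4:91251944-91251969, chr4:91251736-91251761 and chr4:91251071-91251096, and those of *Pum2*, which encodes a PUM protein itself, on the plus strand at chr12:8750156-8750181 and chr12:8750409-8750434.
Elavl2 site 1: tttgtgtgaTGTAAATAagaccttgt
Elavl2 site 2: aattctgtcTGTAGATAgtctagctt
Elavl2 site 3: taaaatacaTGTATATAtttaaaaaa
Pum2 site 1: ttatagagaTGTATATAgaattatag
Pum2 site 2: gtacagaatTGTATATActtataatt
The capitals mark the element. The pentamer ATTTA, the core of AU-rich elements, occurred 15 times in the *Elavl2* 3′ UTR, a number reached by 1.3% of 3′ UTRs of similar length. That was the smallest such share among the 9 genes, and base composition was not matched. *Pum2* and *Lin28b* had 10 each, reached by 15.8% and 34.6%. *Nanos1* had 7 (35.0%), *Dazl* 6 (21.5%), *Lin28a* 5 (53.6%) and *Dnd1* 1 (41.5%), and *Nanos2* and *Nanos3* had none. Neither the let-7 match nor the Pumilio element occurred in the 3′ UTRs of *Nanos2*, *Nanos3*, *Dazl* or *Dnd1*, of which those of *Nanos3* and *Dnd1*, with 172 and 360 bases, were the shortest of the 9.

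Each library held between 22729292 and 23550433 fragments counted on genes. Within the groups WT replicate 3 stood apart, with a chi-square per degree of freedom of 24.5 and 18.2 against WT replicates 1 and 2, compared with 5.16 between those replicates and 4.25 to 9.99 among the MUT samples. *Hras* was at 56.8 to 65.2 CPM (counts scaled to a common library size by TMM normalisation) in WT and 61.0 to 69.9 CPM in MUT, and the reporter tdTomato at 56.2 to 65.2 and 52.6 to 66.4 CPM. The labelled cell type was checked with 8 marker genes of undifferentiated spermatogonia, which were detected in all samples with a summed level of 1171 to 1662 CPM in WT and 1336 to 1627 CPM in MUT (highest per kilobase, *Zbtb16*). The log2 fold change of MUT over WT was negative for 5 of the 8 and positive for 3, with a median of -0.16. RNA of other cells was present too. Of these, 5 markers of differentiating spermatogonia, among them *Kit*, the receptor gained at differentiation, summed to 812 to 894 CPM in WT and 914 to 1048 CPM in MUT, ranges that did not overlap, whereas those of all other marker sums did. The 6 spermatid markers summed to 869 to 1476 CPM in WT and 601 to 1147 CPM in MUT (highest, *Prm2*), overlapping ranges, but within the pairs of equal replicate number the sum was lower in MUT in 3 of 3. The 6 macrophage markers summed to 721 to 1197 and 642 to 803 CPM (highest, *Lyz2*), and the log2 fold change was negative for all 6, with a median of -0.29. Markers of spermatocytes summed to 277 to 384 and 324 to 350.5 CPM (highest, *Sycp2*), those of Sertoli cells to 56.8 to 141.5 and 85.8 to 119.9 CPM (highest, *Clu*), and those of Leydig cells to 13.2 to 21.1 and 12.9 to 67.3 CPM (highest, *Cyp17a1*). The Leydig sum of 67.3 CPM was that of MUT replicate 3 alone, beside 12.9 and 13.5 CPM in MUT replicates 1 and 2. Endothelial markers (highest, *Cdh5*) and peritubular myoid markers (highest, *Acta2*) stayed at or under 45.4 CPM in every sample. Within the pairs of equal number, the sums of differentiating and of peritubular myoid markers were higher in MUT in 3 of 3. The peritubular myoid sums were 7.91 to 9.68 CPM in WT and 9.15 to 12.8 CPM in MUT. In sorted bulk RNA, fewer cells of a type and less RNA per cell cannot be told apart.

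All 9 genes were expressed and passed the filter on low counts, as did 19656 genes in all, but they differed widely in level. Levels were compared between genes as CPM per kilobase of exon, averaged over the 6 samples. *Dazl* was highest at 305 CPM per kilobase, a level that 99.8% of the 19656 tested genes stayed below. *Lin28a* followed at 93.5, *Dnd1* at 34.5, *Nanos3* at 31.6, *Pum2* at 29.2, *Nanos1* at 14.5, *Lin28b* at 8.38, *Elavl2* at 7.54 and *Nanos2* at 2.88 CPM per kilobase. Neighbours in this order did not overlap over the 6 samples, except *Dnd1* with *Nanos3*, *Nanos3* with *Pum2*, and *Lin28b* with *Elavl2*, whose ranges did. The length used was that of all annotated exons, 9065 bases for *Lin28b* and 8313 for *Elavl2*. In the motif search their transcripts had coding sequences of 813 and 1164 bases and 3′ UTRs of 4445 and 2477 bases. Levels with transcript lengths were not computed, so orders, ratios and shares between genes, here and below, depend on the length chosen. *Nanos2* was the lowest of the 9, and 44.2% of the tested genes stayed below its level.

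**Figure D1:**
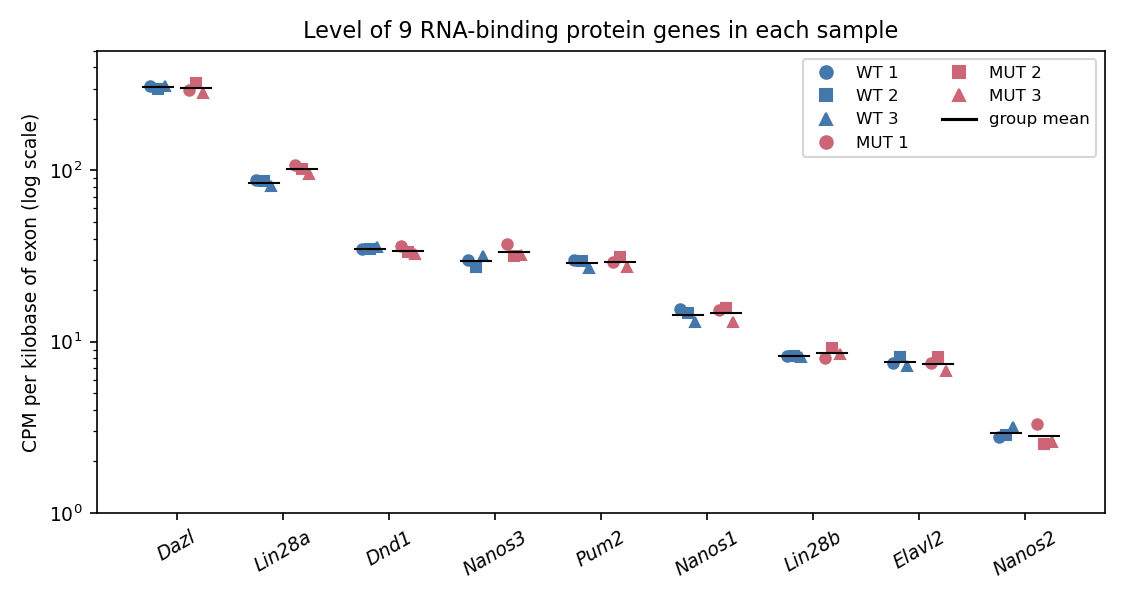
Level of the 9 genes in each of the 6 samples, in TMM-normalised CPM per kilobase of exon on a log axis, with WT and MUT samples in different colours and the genes in order of their mean. *Dazl* stands at about 305 and *Nanos2* at about 2.88 CPM per kilobase, and the WT and MUT points of *Lin28a* do not overlap.

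The NANOS family was made up mainly of *Nanos3*. NANOS3 is required for the survival of primordial germ cells and is made in spermatogonia, NANOS2 maintains spermatogonial stem cells, and NANOS1 is a relative best known from the nervous system. Per kilobase, *Nanos3* made 63.1% of the summed level of the 3 genes in WT and 65.8% in MUT, *Nanos1* 30.6% and 28.7%, and *Nanos2* 6.27% and 5.48%. For *Nanos2* these shares divide by its full exon, of which, as described below, only 797 of 1563 bases belonged to no other gene. Divided by those bases, its share was 11.6% in WT and 10.2% in MUT, that of *Nanos3* 59.5% and 62.5%, and that of *Nanos1* 28.9% and 27.3%. With either length the order in each of the 6 samples was *Nanos3*, *Nanos1*, *Nanos2*.

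*Nanos3* (chromosome 8, 84173731 to 84185217, minus strand) was at 27.7, 25.3 and 29.3 CPM in WT replicates 1 to 3 and at 34.2, 29.4 and 29.5 CPM in MUT replicates 1 to 3. Every MUT sample lay above every WT sample, but WT replicate 3 and MUT replicate 2 were nearly equal, and when the counts were scaled by library totals alone the groups overlapped. The log2 fold change of MUT over WT was 0.18 (standard error 0.099, 95% interval -0.047 to 0.41), and it did not pass edgeR's quasi-likelihood test at an FDR of 0.1 (adjusted p = 0.998 by Benjamini-Hochberg). It rested in large part on MUT replicate 1, without which it was 0.097.

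*Nanos1* (chromosome 19, 60755987 to 60759913, plus strand) was at 60.8, 57.5 and 51.1 CPM in WT and at 60.0, 61.6 and 51.3 CPM in MUT. Replicate 3 was the lowest of its group in both groups, and the groups overlapped over nearly their whole range. Its log2 fold change was 0.029 with a 95% interval of -0.19 to 0.25.

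*Nanos2* (chromosome 7, 18987400 to 18988962, plus strand, 1 exon) had 100, 104 and 118 counts in WT and 118, 91 and 95 counts in MUT, or 4.37, 4.44 and 4.99 CPM and 5.16, 3.95 and 4.06 CPM. MUT replicate 1 was the highest of the 6 samples and the other MUT samples were the lowest. The log2 fold change was -0.068 with a 95% interval of -0.47 to 0.33, the widest interval among the 9 genes. At these counts a single library carries a wide counting interval, 81.4 to 121.6 counts for WT replicate 1.

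The count of *Nanos2* left out fragments from a part of its exon. On the opposite strand the annotation of the count tables places *RP24-576D1.5*, from 18987559 to 18988324, whose exon shares 766 bases with *Nanos2*, or 49.0% of the *Nanos2* exon. The shared stretch includes the whole *Nanos2* coding sequence (18987605 to 18988012, GENCODE vM21). The authors counted fragments without regard to strand and left out those that overlapped more than 1 gene. The whole exon of *RP24-576D1.5* lies within that of *Nanos2*, so this rule alone fixed its count at 0 in all 6 samples, and that 0 says nothing about its level. Of the *Nanos2* exon, 159 bases before and 638 bases after the shared stretch, 797 bases in all, belonged to no other gene. Divided by these bases alone, an alternative chosen after seeing the data, its level was 5.64 CPM per kilobase in place of 2.88, which left it the lowest of the 9. How fragments that cross an edge of the shared stretch were counted was not examined, so 797 bases are only an approximate length. The same rule touched 5.86% of the exon bases of *Lin28a* and 1.58% of those of *Dnd1*, and none of the others.

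**Figure D2:**
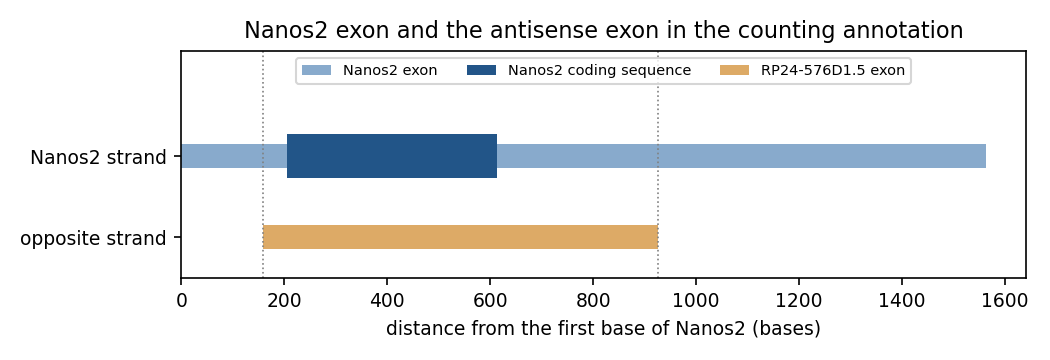
Map of the single exon of *Nanos2* in bases from its start, with its coding sequence and the exon of the gene on the opposite strand drawn to scale. Bases 160 to 925 of the 1563 are shared with that gene, and the coding sequence, bases 206 to 613, lies wholly within them.

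Of the pair of *Lin28* genes, *Lin28a* predominated, and it had the largest difference between the groups among the 9 genes. LIN28A, a cytoplasmic protein, is found in spermatogonia and recruits a terminal uridylyl transferase to let-7 precursors. *Lin28a* (chromosome 4, 134003330 to 134018841, minus strand) was at 351, 345 and 324 CPM in WT replicates 1 to 3 and at 429.8, 408 and 383 CPM in MUT replicates 1 to 3. The groups did not overlap, with MUT the higher, and the lowest MUT sample, replicate 3, carries the same number as the lowest WT sample. The WT mean was 339.9 ± 13.96 CPM and the MUT mean 407 ± 23.3 CPM (SD, n = 3 each). The difference was a log2 fold change of 0.26 (standard error 0.077), or 1.197-fold with a 95% interval of 1.06-fold to 1.35-fold. By edgeR's quasi-likelihood test its unadjusted p was 0.00861 and its adjusted p over all tested genes was 0.998, so it did not pass an FDR of 0.1. With each sample left out in turn the log2 fold change stayed between 0.21 and 0.30. Over all the alternatives of test, scaling, filter and samples its adjusted p lay between 0.298 and 1.0. Whether the summed level of differentiating markers, which was also higher in every MUT sample, has a part in this difference was not tested.

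*Lin28b* (chromosome 10, 45376620 to 45486395, minus strand), the relative of *Lin28a* that is also found in the nucleus, was at 74.4, 75.0 and 74.1 CPM in WT and at 72.5, 82.9 and 76.9 CPM in MUT. The WT samples were nearly equal and the MUT samples fell on either side of them. The log2 fold change was 0.056 with a 95% interval of -0.10 to 0.21. Per kilobase, *Lin28a* exceeded *Lin28b* 10.7-fold, 10.4-fold and 9.93-fold in WT replicates 1 to 3 and 13.5-fold, 11.2-fold and 11.3-fold in MUT replicates 1 to 3. These ratios did not overlap between the groups either, and they share the counts of *Lin28a* with the difference above.

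*Dazl*, *Dnd1*, *Pum2* and *Elavl2* had overlapping groups throughout. DAZL is needed for germ cell development and for the formation of gametes. *Dazl* (chromosome 17, 50279394 to 50293599, minus strand) was at 916, 885.5 and 919 CPM in WT and at 866, 959 and 837 CPM in MUT, so that the MUT samples included both the highest and the lowest value. Its log2 fold change was -0.031 with a 95% interval of -0.23 to 0.16. *Boll*, the other family member measured, was far lower, and *Dazl* made 97.1% of the summed level per kilobase of the pair in WT and 96.7% in MUT.

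DND1, whose loss in mice removes germ cells and predisposes to testicular teratoma, is a partner of NANOS2. *Dnd1* (chromosome 18, 36763671 to 36766214, minus strand) was at 83.5, 83.6 and 85.8 CPM in WT and at 86.8, 80.8 and 78.4 CPM in MUT. The WT samples lay within the range of the MUT samples, and the log2 fold change was -0.040 with a 95% interval of -0.19 to 0.11.

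PUM2 represses mRNAs that carry the Pumilio element. *Pum2* (chromosome 12, 8674134 to 8752581, plus strand) was at 219, 216 and 197 CPM in WT and at 212.5, 228 and 198 CPM in MUT, with replicate 3 lowest in each group. MUT differed from WT by 0.015 on the log2 scale, with a 95% interval of -0.17 to 0.20.

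*Elavl2* (chromosome 4, 91250763 to 91400785, minus strand) was at 62.4, 67.6 and 60.4 CPM in WT and at 62.3, 67.3 and 55.9 CPM in MUT. Replicate 2 was highest and replicate 3 lowest in both groups. On the log2 scale MUT differed from WT by -0.037, with a 95% interval of -0.23 to 0.16. Of the summed level per kilobase of *Elavl1*, *Elavl2*, *Elavl3* and *Elavl4*, *Elavl2* made 35.2% in WT and 34.1% in MUT.

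As a group, 0 of the 9 genes passed an FDR of 0.1 in edgeR's quasi-likelihood test, in which 2 of 19656 genes (0.0102%) passed, both lower in MUT. At an unadjusted p under 0.05, 1 of the 9 (*Lin28a*) passed, against 2.78% of all tested genes. MUT samples all exceeded WT samples for 2 of the 9 (*Lin28a* and *Nanos3*), against 4.69% of all tested genes, and 1 of the 9 with library totals as the scaling. MUT samples all fell below WT samples for 0 of the 9, against 3.00% of all tested genes. The log2 fold change was positive for 5 and negative for 4, with a median of 0.015 beside 0.0066 over all tested genes. The adjusted p was 0.998 for each of the 9.

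The intervals were narrow enough to limit the size of a difference. All 9 of the 95% intervals lay within a 1.5-fold difference in either direction. The lowest bound was that of *Nanos2* at 0.72-fold, and the highest was that of *Lin28a* at 1.35-fold. Differences that lie within these intervals were not resolved with 3 mice a group.

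**Figure D3:**
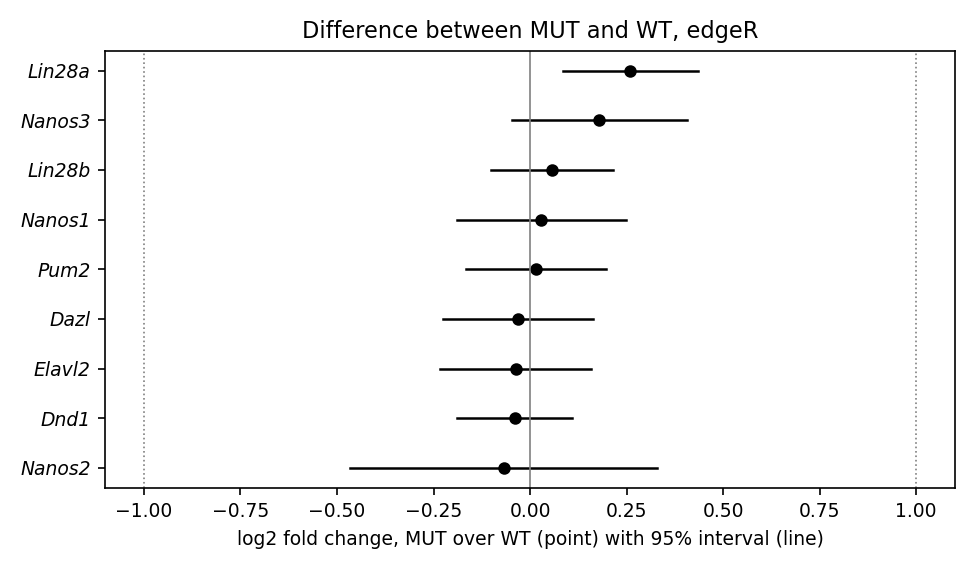
Log2 fold change of MUT over WT for each of the 9 genes from edgeR's quasi-likelihood fit, with 95% intervals as bars, a line at 0 and dotted lines at -1 and 1. The interval of *Lin28a*, 0.085 to 0.43, lies wholly above 0, and that of each other gene includes 0.

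Samples of equal replicate number were taken as pairs because they deviated together, as described under how the data were processed. Neither the labels nor the methods state which samples are pairs. Within these pairs the log2 difference in CPM of *Lin28a* was 0.29, 0.24 and 0.24, higher in MUT in 3 of 3, and that of *Nanos3* was 0.30, 0.22 and 0.012, also higher in 3 of 3. *Elavl2* was higher in MUT in 0 of 3 pairs, by differences of -0.0018, -0.0064 and -0.11, and the other 6 genes differed in sign between pairs. The share of all tested genes with the same sign in all 3 pairs was not counted, so these counts are descriptions only. When edgeR was given the replicate number as a block, 0 of the 9 passed an FDR of 0.1, while the share of tested genes that passed was 0.0661%.

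The genes through which these proteins act were examined as 7 lists of named genes, and 0 genes of these lists passed an FDR of 0.1. Over all 19656 tested genes, the log2 fold change was positive for 10191 and negative for 9465. The let-7 target genes had a median log2 fold change of 0.15, with 9 of 10 positive, and 1 of the 10 is also among the markers of differentiating spermatogonia. From the lowest to the highest they ran from -0.0052 for *Igf2bp1*, which encodes an mRNA-binding protein, to 0.36 for *Hmga2*, a chromatin protein gene at 1.32 and 1.69 CPM, and the most abundant per kilobase was *Hmga1*, with a WT mean of 178 ± 21.3 CPM and a MUT mean of 199.7 ± 14.2 CPM (SD, n = 3 each). Their median rested in part on WT replicate 3, without which it was 0.071 and *Hmga1* fell from 0.17 to 0.073, and *Hmga2* was at 0.19 without WT replicate 2. Of the 9 genes for let-7 processing and decay, 6 were positive, with a median of 0.039, which was -0.023 without WT replicate 3 and 0.13 without WT replicate 1. *Drosha*, the nuclear nuclease of microRNA processing, was the most abundant, *Dicer1*, which cuts the precursor, was at 0.14 (0.057 without WT replicate 3), and *Zcchc6*, a terminal uridylyl transferase, was at -0.15 on the log2 scale. Mature let-7 levels are not measured by libraries of this kind.

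Of 6 genes described as NANOS2 targets, 5 were positive, with a median log2 fold change of 0.13, and without MUT replicate 1 the median was 0.079. Of the 6, *Kit*, *Stra8* and *Sohlh1* are also among the 5 markers of differentiating spermatogonia whose sum was higher in every MUT sample, and the part of those cells in these values was not tested. *Kit* and *Stra8*, the retinoic acid response gene of the entry into meiosis, had unadjusted p under 0.05. *Stra8* had 3638, 4048 and 4132 counts in WT and 4223, 5591 and 4371 counts in MUT, groups that did not overlap, and a log2 fold change of 0.28. *Kit* had 3106, 3873 and 2924 counts in WT and 3556, 5216 and 3832 counts in MUT, groups that overlapped, and a log2 fold change of 0.36. Both values rested on MUT replicate 2, without which *Stra8* was at 0.12 and *Kit* at 0.16. Both had an adjusted p of 0.998 (edgeR's quasi-likelihood test, Benjamini-Hochberg). *Sohlh1*, a transcription factor gene of early spermatogonia, was at 0.10 (0.032 without MUT replicate 1). *Dazl*, described above, belongs to this list as well and was both its most abundant gene per kilobase and the one with its lowest log2 fold change.

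The 13 genes of the CCR4-NOT complex and its adaptors divided into 7 positive and 6 negative, with a median log2 fold change of 0.0079, between -0.016 and 0.053 with a sample left out. *Cnot1*, the scaffold of the complex, was highest at 0.12, with 15919, 15738 and 11252 counts in WT and 15762, 15137 and 15486 counts in MUT. WT replicate 3 was thus the low sample, and without it the value was -0.032. *Tob1*, an adaptor, was lowest at -0.15 (-0.068 without WT replicate 3), and *Rqcd1* (also named *Cnot9*) was the most abundant per kilobase. Of the 5 genes described as DAZL targets, 3 were positive, with a median of 0.019 (between -0.038 and 0.048 with a sample left out), from -0.042 for *Tex19.1* to 0.062 for *Tex14*, which is needed for the bridges between germ cells, and *Ddx4*, the germ cell RNA helicase, was the most abundant.

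Of the relatives of the 9 genes, 7 of 8 were tested and 6 of these were positive, with a median log2 fold change of 0.096, which was 0.027 without MUT replicate 2. *Elavl3* was highest at 0.31 (0.12 without WT replicate 1) and *Rbm47* lowest at -0.035. Among 16 other RNA-binding protein genes of germ cells, 10 were positive, with a median of 0.028 (between -0.014 and 0.062 with a sample left out). They ran from -0.15 for *Ybx2*, which binds and stores mRNA, to 0.21 for *Bicc1* (0.086 for *Ybx2* and 0.11 for *Bicc1* without WT replicate 3), and *Ddx4* was again the most abundant. Of the marker genes of other cells, *Prm1*, a protamine gene of spermatids, had a log2 fold change of -0.62 and *Wt1*, a Sertoli cell transcription factor gene, one of 0.36. Both had an unadjusted p under 0.05 in edgeR's quasi-likelihood test, and neither passed an FDR of 0.1. *Wt1* was at 0.19 without MUT replicate 2, and the median of the 6 Sertoli cell markers was 0.055. *Prm1* had 5491, 4279 and 7281 counts in WT and 2598, 3147 and 5302 in MUT, lower in MUT in each pair of equal number, and it passed the FDR in DESeq2 with the replicate block (log2 fold change -0.64, adjusted p = 0.00126). The spermatid markers *Tnp1* and *Tnp2*, named after their values were seen, passed in that fit as well, and *Tnp1* also in edgeR with the replicate block (-0.63, adjusted p = 0.0794). The part of spermatid RNA in the values of the 9 genes was not tested.

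**Figure D4:**
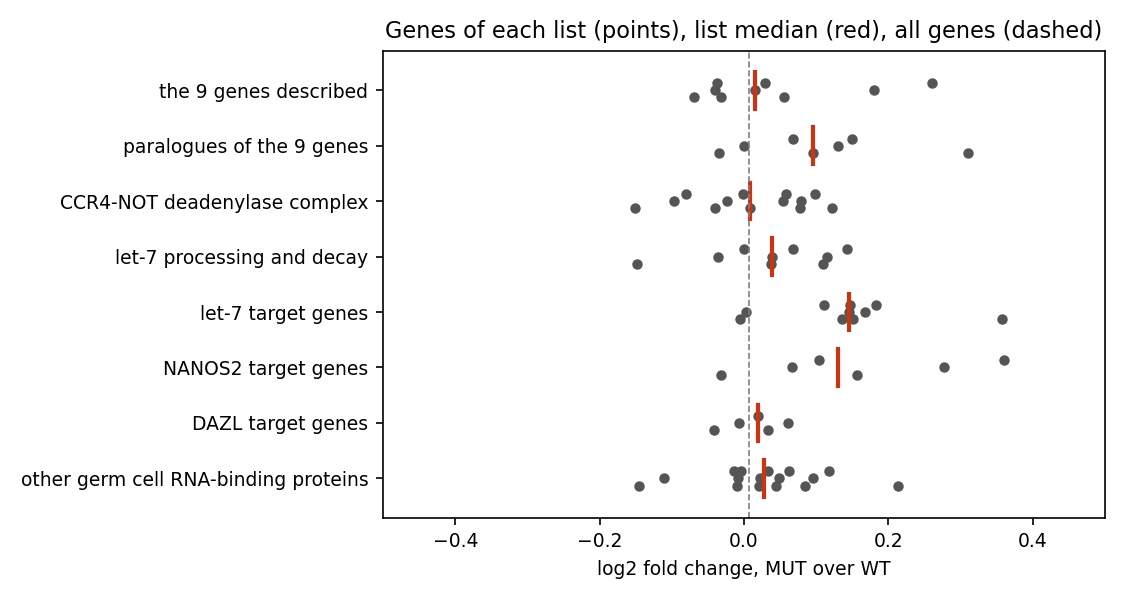
Log2 fold changes of MUT over WT for the 9 genes and the genes of the 7 lists, one point a gene, with a red bar at each median and a dashed line at the median of all tested genes, 0.0066. The medians of the 7 lists run from 0.0079 for the CCR4-NOT complex to 0.15 for the let-7 target genes, and no gene passed an FDR of 0.1.

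The genes whose levels followed those of *Lin28a* and *Nanos2* most closely over the 6 samples were sought among genes above 10 CPM, by the Pearson correlation of log2 CPM. For *Lin28a* they were *Src* (0.99), *Suv39h1* (0.99) and *Marveld2* (0.98), and 31 of 10582 genes were above 0.95. For *Nanos2* they were *Rpl9* (0.99), *Dtwd2* (0.99) and *Bnip2* (0.98), and 34 of 10583 genes were above 0.95. These are descriptions over 6 libraries that share their groups and scaling factors, and the named genes were picked as the highest of all. How many genes would exceed 0.95 without any relation was not computed. For *Nanos2* the low counts add counting error to its values.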

How the data were processed

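RNA from tdTomato+ MCAM-bright Aundiff was sequenced as stranded mRNA libraries, paired-end, for 3 WT and 3 MUT mice. For every sample the authors deposited a table of raw fragment counts by gene name. Per the file headers these come from featureCounts 1.6.2 and a GENCODE annotation of GRCm38.p6 to which tdTomato was added. Strand was disregarded, multi-mapping and ambiguous fragments were not counted, and the values were neither normalized nor pooled. The submitters' processing notes also name FastQC and STAR, whose versions are not given in the sources used here.

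Groups and replicate numbers were taken from the sample labels. Counts were joined by gene name, and in R 4.3.3 edgeR 4.0.16 scaled them by TMM, filtered them with filterByExpr and compared MUT with WT over all tested genes by its quasi-likelihood test, in a model of genotype alone, at an FDR of 0.1 after Benjamini-Hochberg adjustment. Each sample was a separate mouse. Depth of 22729292 to 23550433 counts made 3 counts equal to 0.127 to 0.132 CPM, and intervals on counts (exact Poisson, 95%) and such limits cover counting error only. No replicate pair looked like 1 library counted again (chi-square per degree of freedom 4.25 or more).

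The 9 genes and the lists were chosen with earlier results of these data known, so that no list is independent evidence. Named individually were the 9 genes, in each pathway list the most abundant gene and those with the lowest and highest log2 fold change (mean of at least 1 CPM), in each marker list the most abundant gene, any list gene past the FDR or with p under 0.05, and the 3 genes most like *Lin28a* and *Nanos2*. The result for 1 gene that this rule names is not reported here. *Hras*, tdTomato and the relatives in the family shares were added to these. Older names were used for 4 list genes (*Rqcd1*, *Zcchc11*, *Zcchc6* and *Papd4*), and 1 spermatocyte marker was not matched.

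Alternatives were DESeq2 1.42.0, limma 3.58.1 (voom), DESeq2 size factors, library totals, no filter, a floor of 10 counts in each of the samples, a block on replicate number, an FDR of 0.05, and each sample left out. Same-numbered WT and MUT samples deviated together (correlations of 0.31, 0.17 and 0.39 over 10583 genes above 10 CPM), so the numbers were taken to pair the samples, although WT replicate 2 correlated more with MUT replicate 1 (0.32) than with its own number. The labels give replicate numbers without stating that equal numbers are pairs, and the methods name littermate controls without giving the pairs. The test code was tested on simulated counts. Motifs were searched on the sense strand of 3′ UTRs, each motif by itself. Coordinates of genes are those of the deposited tables.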

Additional observations from a re-analysis of the deposited data

How the results depend on the processing

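In all 14 settings of test, scaling, filter and samples, the reported one included, 0 of the 9 genes and 0 genes of the 7 lists passed the FDR, while the count over all genes moved from 2 to 9 with DESeq2, 4 with limma voom, 5 with no filter, 0 with at least 10 counts in every sample (479 genes had an unadjusted p under 0.05), 1 once the FDR was 0.05, and between 0 and 6 with a sample left out (0 without MUT replicate 2, with 292 genes at an unadjusted p under 0.05). With the replicate block, in a paired fit, it was 13 in edgeR and 55 in DESeq2, and the block changed no call of the 9 genes or the lists. Of the marker genes, *Prm1*, *Tnp1* and *Tnp2* of spermatids passed in DESeq2 with the replicate block, and *Tnp1* in edgeR with it. The number of the 9 genes with groups apart was 1 in place of 2 with library totals.

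The direction of *Lin28a*, *Nanos3*, *Nanos2* and *Dnd1* held in all alternatives run. The log2 fold change ran from -0.21 to -0.0065 for *Nanos2* and from -0.089 to -0.0065 for *Dnd1*, so the direction of these genes was not resolved. Of 117 recomputed log2 fold changes of the 9 genes, 109 kept their direction, and the 8 that reversed were all with a sample left out, where the ranges were -0.037 to 0.11 for *Nanos1*, -0.0087 to 0.094 for *Lin28b*, -0.10 to 0.011 for *Dazl*, -0.050 to 0.065 for *Pum2* and -0.12 to 0.032 for *Elavl2*. For other named genes they were -0.032 to 0.21 for *Cnot1*, -0.12 to 0.065 for *Igf2bp1*, -0.16 to 0.030 for *Rbm47*, -0.013 to 0.090 for *Tex14*, -0.12 to 0.030 for *Tex19.1* and -0.40 to 0.086 for *Ybx2*. *Igf2bp1* was also at 0.0027 with limma voom and, with the replicate block, at 0.0025 in edgeR and 0.0039 in DESeq2. The cause of these reversals was not tested. Depth limits *Nanos2* most, which had 91 to 118 counts a library.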
